A study of Mus musculus with 13 samples.

Results

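Many mouse genes can be transcribed from more than 1 start site, and the deposited H3K4me3 table of mouse hippocampus lists several separate regions of the mark for some of them. The regions described here lie on autosomes, carry a single gene name, and belong to a gene name that has at least 2 such regions. There were 1498 of these regions at 701 genes, among 14006 distinct regions and 14523 gene names in the whole table. A pair of regions was found at 618 genes, 3 regions at 71 genes, 4 at 11 genes and 5 at 1 gene, Plec. On the autosomes 1073 gene names were listed with 2 or more regions, and 1623 of those regions named a single gene. A further 125 of these had no second region with the same single name, so no share could be formed for them and they were not compared.

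Chromatin immunoprecipitation and sequencing of trimethylated lysine 4 of histone H3 gave 13 libraries from C57BL/6 hippocampus. The wild-type groups are labelled MLML-WT, with vehicle (DMSO and PEG, n = 4) or SRT2104, a small-molecule activator of the deacetylase SIRT1 (n = 3). The knockout groups are labelled TC;MLML_MTR-KO, not treated (n = 2) or given SRT2104 (n = 4), and lack exons 4 and 5 of Mtr, the methionine synthase gene, where Cre under the Thy-1.2 promoter had recombined the floxed allele. SRT2104 was given by gavage at 50 mg/kg, 3 times a week from day 15 to day 36, in 9 administrations. No vehicle is named for the untreated knockouts. Vehicle gavage and genotype cannot be told apart between them and wild-type vehicle, and gavage and SRT2104 cannot be told apart between treated and untreated knockouts. Both were female and all 4 wild-type vehicle libraries were male, so sex and genotype cannot be told apart between those groups either, except through the SRT2104 groups, which hold both sexes. The labels do not say that each library came from a separate mouse, and p-values here cover only the spread from library to library.

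Nucleosomes that flank an active or poised start site carry H3K4me3, which is deposited by methyltransferases that are drawn to unmethylated CpG-rich DNA. A gene with alternative promoters can begin its transcript at start sites that lie far apart, which changes the first exon and sometimes the protein, and many neuronal genes use such promoters by cell type or in response to activity. The mark also forms more than 1 peak around a single start site, with a nucleosome-poor gap between them, so that several regions of a gene do not by themselves show several promoters.

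Reads in regions ranged from 3963196 to 9009109 per library. All 10 hippocampal and excitatory neuron markers searched for had a region, and none was at 0. The Mtr promoter region (mm9, chromosome 13, 12349305 to 12350575) lies outside the deleted exons and does not check the genotype; its normalised read count was 510.2 and 426.9 in untreated knockouts, and the remaining 11 libraries had 438.0 to 506.7. Wild-type vehicle replicate 3 stood apart from the other 3 of its group in summed levels of myelin and oligodendrocyte markers (2983 against 3709 to 3960; 11 of 14 markers in the table) and of choroid plexus and ependyma markers (1004 against 1262 to 1373; 6 of 10 markers in the table). The untreated knockouts had 3713 and 2791 for the first list. For the second they had 1040 and 907, below all 4 treated knockouts (1189 to 1391), all 3 wild-type SRT2104 libraries (1075 to 1291) and every vehicle library except replicate 3. The part of these cell types in the results was not tested, and results that rest on replicate 3 are given with and without it.

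The DNA at the start sites is shown for 4 genes, because CpG content was the sequence property that went with the strength of the mark. RefSeq promoter windows of 300 bases (250 before the start site and 50 after it, GRCm38.p6) were paired with start sites of the deposited mm9 table by their spacing within a gene, with no conversion of coordinates. Names such as Dab2ip_1 number the regions of a gene from its 5′ end, and capitals mark CpG. Dab2ip, which encodes a Ras GTPase-activating protein, and Hrh1, which encodes the histamine H1 receptor, each had a strong CpG-rich and a weak CpG-poor region. Satb1, which encodes a chromatin organiser of neurons and T cells, is an exception, and Bdnf, which encodes a neurotrophin, is a textbook gene with several promoters.
Dab2ip_1: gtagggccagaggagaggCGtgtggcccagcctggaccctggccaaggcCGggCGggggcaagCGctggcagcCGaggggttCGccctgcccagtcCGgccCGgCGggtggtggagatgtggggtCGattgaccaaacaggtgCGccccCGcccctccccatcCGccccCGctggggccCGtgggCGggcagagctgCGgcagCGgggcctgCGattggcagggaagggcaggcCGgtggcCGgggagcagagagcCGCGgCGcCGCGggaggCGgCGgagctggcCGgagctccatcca
Dab2ip_3: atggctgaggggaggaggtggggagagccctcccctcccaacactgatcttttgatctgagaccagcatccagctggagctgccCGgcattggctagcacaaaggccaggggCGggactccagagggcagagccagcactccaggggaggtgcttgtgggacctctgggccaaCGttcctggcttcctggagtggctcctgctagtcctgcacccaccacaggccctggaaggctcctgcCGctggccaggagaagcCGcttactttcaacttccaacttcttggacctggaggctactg
Hrh1_1: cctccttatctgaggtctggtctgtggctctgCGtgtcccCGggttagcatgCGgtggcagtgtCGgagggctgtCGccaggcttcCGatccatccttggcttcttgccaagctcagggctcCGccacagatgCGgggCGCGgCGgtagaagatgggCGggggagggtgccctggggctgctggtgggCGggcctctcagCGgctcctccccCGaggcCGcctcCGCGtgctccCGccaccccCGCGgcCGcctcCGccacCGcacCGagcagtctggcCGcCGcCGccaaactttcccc
Hrh1_2: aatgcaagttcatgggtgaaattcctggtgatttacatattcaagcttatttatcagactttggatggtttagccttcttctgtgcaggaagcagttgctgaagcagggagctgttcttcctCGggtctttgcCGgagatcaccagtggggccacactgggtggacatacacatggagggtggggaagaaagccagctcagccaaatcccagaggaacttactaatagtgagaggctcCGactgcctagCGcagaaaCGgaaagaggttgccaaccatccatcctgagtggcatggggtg
Satb1_1: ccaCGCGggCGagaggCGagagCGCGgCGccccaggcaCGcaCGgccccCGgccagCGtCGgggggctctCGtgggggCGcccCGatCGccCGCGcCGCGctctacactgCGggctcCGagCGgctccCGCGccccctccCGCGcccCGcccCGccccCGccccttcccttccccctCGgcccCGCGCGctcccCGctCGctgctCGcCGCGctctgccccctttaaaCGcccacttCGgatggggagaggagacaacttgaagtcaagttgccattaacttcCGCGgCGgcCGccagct
Satb1_2: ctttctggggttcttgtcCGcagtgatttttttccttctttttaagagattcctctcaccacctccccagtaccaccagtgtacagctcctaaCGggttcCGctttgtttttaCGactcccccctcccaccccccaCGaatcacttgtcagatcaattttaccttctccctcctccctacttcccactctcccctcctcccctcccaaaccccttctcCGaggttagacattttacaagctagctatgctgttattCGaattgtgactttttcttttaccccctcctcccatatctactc
Bdnf_1: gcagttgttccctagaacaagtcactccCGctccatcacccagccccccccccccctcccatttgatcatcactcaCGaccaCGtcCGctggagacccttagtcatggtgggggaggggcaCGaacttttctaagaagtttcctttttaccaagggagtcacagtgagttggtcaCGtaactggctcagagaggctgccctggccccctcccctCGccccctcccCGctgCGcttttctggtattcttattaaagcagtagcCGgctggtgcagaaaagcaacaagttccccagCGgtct
Bdnf_2: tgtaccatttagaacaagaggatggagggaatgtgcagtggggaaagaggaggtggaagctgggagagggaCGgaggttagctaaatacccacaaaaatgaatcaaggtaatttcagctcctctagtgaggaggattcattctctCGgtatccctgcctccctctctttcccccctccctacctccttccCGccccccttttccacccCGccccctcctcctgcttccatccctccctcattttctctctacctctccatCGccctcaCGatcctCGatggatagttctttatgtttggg
Bdnf_3: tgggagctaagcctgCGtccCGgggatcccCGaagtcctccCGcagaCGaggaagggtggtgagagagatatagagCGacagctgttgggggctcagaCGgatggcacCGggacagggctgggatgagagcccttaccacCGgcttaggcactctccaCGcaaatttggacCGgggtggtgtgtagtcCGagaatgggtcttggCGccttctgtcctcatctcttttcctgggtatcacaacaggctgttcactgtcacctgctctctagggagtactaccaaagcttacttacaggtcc

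The Dab2ip windows are chr2:35582590-35582889 (29 CpG) and chr2:35691744-35692043 (5 CpG), both on the plus strand, and those regions held 57.8% and 3.63% of the gene's H3K4me3 over all libraries. The Hrh1 windows are chr6:114397686-114397985 (28 CpG) and chr6:114403416-114403715 (5 CpG), plus strand, with 87.6% and 12.4%. In both genes the printed start site with more CpG had the larger share. Dab2ip_2, whose window is not printed, held 31.1% to 39.5% of the gene's mark over the libraries. The Satb1 windows are chr17:51832598-51832897 (45 CpG) and chr17:51812005-51812304 (7 CpG), minus strand, with 44.1% and 55.9%, so the CpG-poor start site had the larger share. The Bdnf windows are chr2:109674450-109674749 (11 CpG), chr2:109676782-109677081 (7 CpG) and chr2:109694159-109694458 (13 CpG), plus strand, with 17.8%, 28.5% and 53.6%.

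More CpG at the strongest region was found in most of the genes whose sequences could be paired. RefSeq's table named 554 of the 701 genes, and spacing fixed the start sites of 544 regions at 255 genes, of which 247 had at least 2. Strongest and next here are ranks by mean normalised read count among the paired regions of a gene, so unpaired regions were left out. In those 247 genes the promoter of the strongest region held a median of 22 CpG and that of the next region 9. The median over all 31396 promoters in the table was 7. The strongest region had more CpG in 182 genes and the same number in 10, which can include regions paired with the same start site. Median GC content was 63.7% and 55.3%. Across the 544 regions Spearman's rank correlation between CpG count and mean normalised read count was 0.588, as a description, since regions of a gene share libraries and promoters share base composition. The letters TATAAA, searched on both strands, occurred in 5.67% of strongest-region promoters, 6.07% of next-region promoters and 13.6% of all promoters, and the palindrome TGACGTCA, the cyclic AMP response element, in 2.02%, 1.62% and 1.83%. None of the 9 windows printed above held either motif, which says only that these letters are not in those windows.

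**Figure D1:**
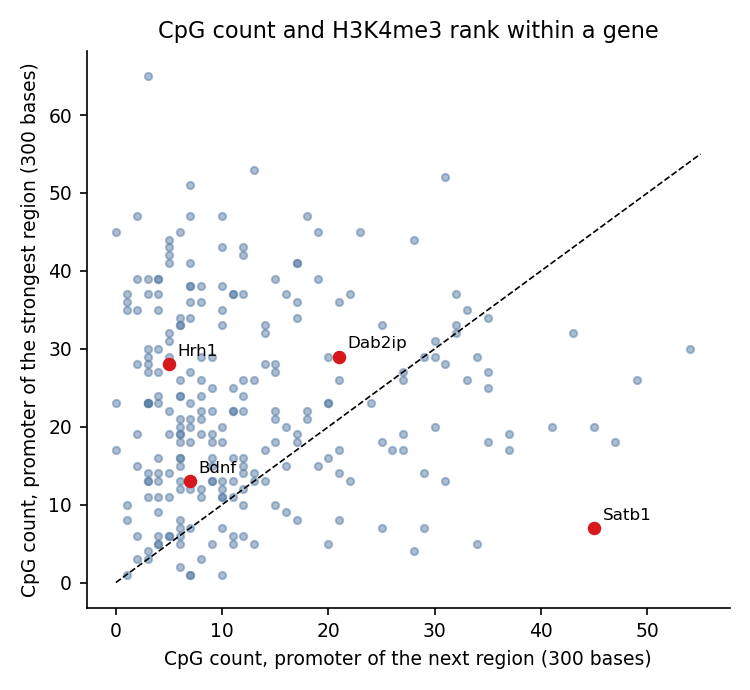
CpG count in the 300-base promoter window of the strongest H3K4me3 region of a gene (vertical axis) against that of the next region (horizontal axis), both ranked among the gene's paired regions. There is 1 point for each of 247 genes, with a dashed line of equality and the genes printed above in red. In 182 genes the point lies above the line; Satb1, at 7 against 45, lies far below it.

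Regions of a gene fell into 2 kinds by spacing. Of the 797 gaps between neighbouring regions of a gene, 381 were under 2500 bp, with a median of 318 bp, and 416 were larger, with a median of 37731.5 bp. The limit is the length of the promoter windows in the deposited table, and Crmp1 (2314 bp) and Nfe2 (2777 bp) lie just on either side of it. The smallest gap was 2 bp, at Nfam1, and the largest 2183323 bp, at Cntnap2, an adhesion gene of neurons. Gaps of at least 100000 bp numbered 105.

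All gaps were under 2500 bp at 337 genes (689 regions), all were larger at 336 genes (721 regions), and 28 genes had both kinds. In the near genes the strongest region held a median of 76.5% of the gene's mark, and it was the last region in the direction of transcription in 280 genes (83.1%) and the first in 54. In the far genes the strongest region held 69.5%, and it was the first, most 5′, region in 213 (63.4%) and the last in 109. Near pairs mostly joined 1 wide and 1 narrow region, since the strongest region had a median width of 1384 bp and the others 554.5 bp. In far genes these widths were 1716 and 1189 bp.

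In 323 near genes with exactly 2 regions, the place of the annotated start site could be read from the promoter window, which begins 2000 bases before it and spans 2500 bp. A single start site fell in the downstream region in 206 genes, between the regions in 45, in the upstream region in 11 and outside both in 7, while 54 genes had several start sites. The part of the window's shape in this split was not tested. Near regions are described below as parts of a promoter's H3K4me3 domain, and far regions as separate promoters.

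**Figure D2:**
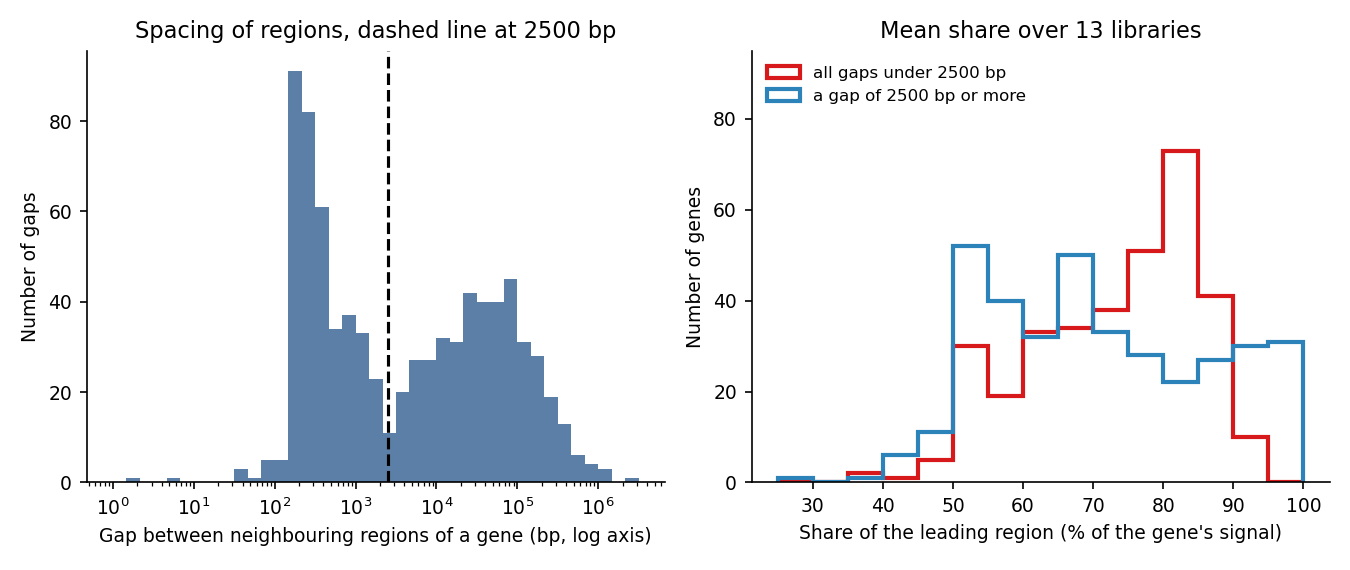
Left, number of gaps between neighbouring regions of a gene by size in bp on a log axis, with a dashed line at 2500 bp; right, number of genes by the share of gene signal in the strongest region, as a mean over 13 libraries, for the 337 genes with every gap under 2500 bp and the 364 genes with a larger gap. Gaps form 2 groups, with medians of 318 and 37731.5 bp, and near genes have their largest count between 80 and 85%.

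At Bdnf, Gnas and Plec, genes known for alternative promoters, the order of the regions by share was the same in all 4 group means. Bdnf_3 held 53.8% ± 2.24 of the gene's mark in vehicle-treated wild types and 54.2% ± 1.13 in those given SRT2104 (SD, n = 4 and 3, as for all group values below). It held 54.9% ± 0.02 in knockouts without treatment and 52.5% ± 1.71 in those with it (SD, n = 2 and 4). At Gnas, which encodes a stimulatory G protein subunit and has imprinted upstream promoters, the last region (Gnas_4) held 75.9% ± 0.51, 74.3% ± 1.60, 77.7% ± 2.32 and 74.8% ± 1.20, and the most 5′ region only 2.1% to 2.6% on average. At Plec, which encodes the linker protein plectin, the 5 regions held 49.5%, 18.1%, 14.3%, 7.6% and 10.6% from 5′ to 3′ over all libraries.

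At several neuronal genes the regions lay far apart. At Cntnap2, which had the largest gap, the 5′ region held 77.8% over all libraries, and at Dlg2, a postsynaptic scaffold gene with a gap of 1142327 bp, 73.1%. Map2, a dendritic microtubule gene, had 59.6% at its 5′ region and 40.4% at the other, 144605 bp away. The order was reversed at Shank2, another postsynaptic scaffold gene, where the downstream region held 77.0%, and at Sema6d, which encodes a guidance molecule, where it held 63.8%. Rora, a nuclear receptor gene, had 57.1% at the 5′ region and 42.9% at a region 633548 bp away. Trim2, a ubiquitin ligase gene of neurons with 4 far regions, had 25.2%, 7.9%, 44.7% and 22.2% from 5′ to 3′, and the windows paired with them held 15, 0, 21 and 9 CpG. In the methionine and methylation list only Mat2b, which encodes the regulatory subunit of methionine adenosyltransferase, and Dnmt3a, a DNA methyltransferase gene, were among the 30 genes listed that had such regions. Mat2b_1 held 31.4% ± 0.51, 30.3% ± 2.69, 32.2% ± 1.41 and 30.9% ± 2.00 in the order of groups above, and Dnmt3a_2, 82440 bp from the main region, held 3.6% ± 0.40, 4.8% ± 1.35, 4.3% ± 1.13 and 3.9% ± 0.33.

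Over all 701 genes, the mean share of the strongest region differed between its highest and lowest group by a median of 2.55 percentage points. The median SD of single libraries within groups was 1.43 to 1.80 percentage points, which is not the spread of a group mean. Whether the range of group means exceeds what that spread gives was not tested. The difference was over 5 points in 127 genes and over 10 in 18. The comparisons below test the log2 ratio of a region to the other regions of its gene, each plus 1, which cancels the library factor, with limma over all 13 libraries and Benjamini-Hochberg adjustment over 880 ratios. A gene with 2 regions gives 1 ratio, that of its weaker region, and a gene with more gives 1 for each.

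**Figure D3:**
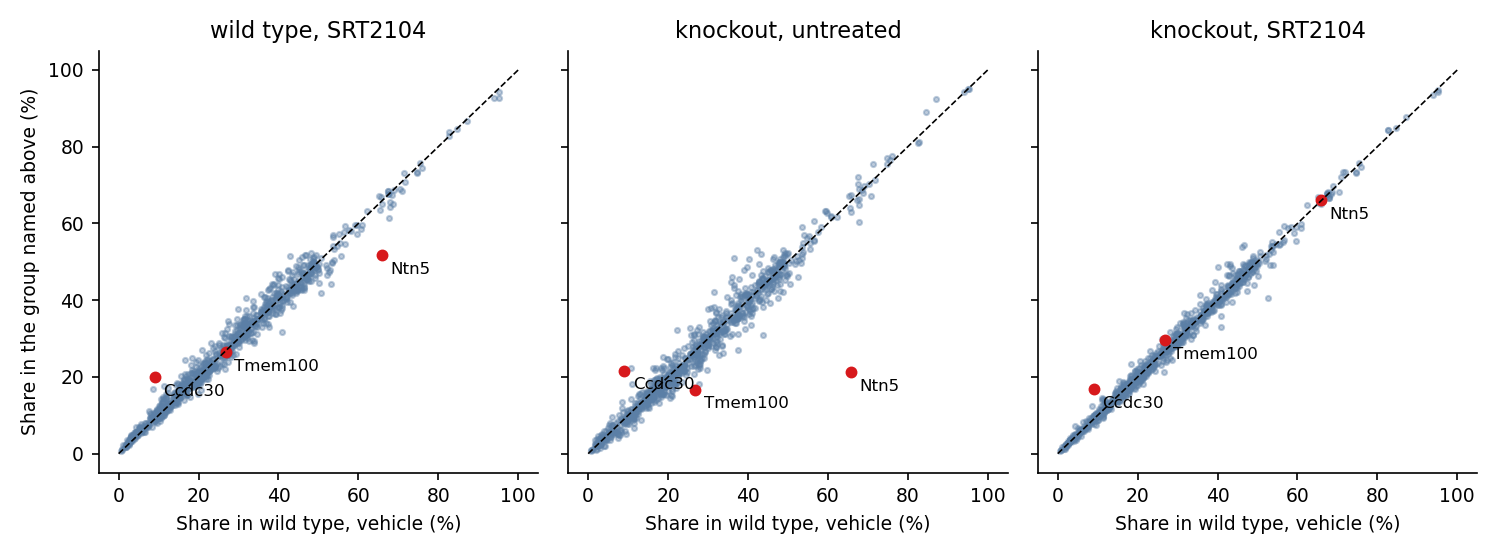
Share of the gene's H3K4me3 at each of 880 regions tested, as group means in percent: wild-type vehicle on the horizontal axis, and each of the other groups on the vertical axis in turn, with a dashed line of equality. Points lie close to the line in all 3 panels; Tmem100, Ntn5 and Ccdc30 are marked in red, and Ntn5, at 65.9% in wild-type vehicle and 21.2% in untreated knockouts, did not pass the test.

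Untreated knockouts were first compared with wild-type vehicle, which asks whether loss of methionine synthase moves the mark between regions of a gene. One ratio passed, 0.114% of those tested: the upstream region of Tmem100, an endothelial membrane protein gene downstream of BMP signalling, had a lower share in the knockouts. An unadjusted p under 0.05 was reached by 95 ratios (10.8%). Tmem100_1 (mm9, chromosome 11, 89890843 to 89891274, plus strand) and Tmem100_2 (89891919 to 89893447) are 645 bp apart and lie in 1 promoter window, so the difference is within a promoter's domain and not between separate promoters.

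The share of Tmem100_1 was 14.3% and 19.0% in the untreated knockouts, and 31.7%, 29.9%, 29.2% and 27.2% in those given SRT2104. Wild types had 29.5%, 27.6%, 25.5% and 24.9% with vehicle and 25.4%, 28.9% and 24.8% with SRT2104. Both untreated knockouts were below all 11 other libraries. Of the 2 regions, Tmem100_2 differed more in level, with 238 and 255 normalised reads in untreated knockouts and 141 to 197 elsewhere, while Tmem100_1 had 39.7 and 60.0 against 53.7 to 79.9.

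The log2 ratio at Tmem100 was lower by 0.88 in untreated knockouts than in wild-type vehicle (log2 difference -0.88 ± 0.15 SE, limma adjusted p = 0.0403). It was higher in treated than in untreated knockouts by 1.07 ± 0.15 (limma adjusted p = 0.00570), again the only call, 0.114% of the ratios tested. These 2 comparisons share the same 2 untreated knockouts, so they are not separate evidence. In wild types the SRT2104 difference was -0.04 ± 0.13 (limma adjusted p = 0.939). Summed levels of the 8 vascular markers, none at 0, were 1745 and 1955 in untreated knockouts, 1580 to 1723 in treated ones, 1552 to 1714 in vehicle wild types and 1629 to 1703 in SRT2104 wild types; the choroid plexus and ependyma sums given above were lower in both untreated knockouts than in all other libraries except wild-type vehicle replicate 3. The part of either list in the Tmem100 result was not tested. In bulk tissue, fewer cells of a type and less mark per cell cannot be told apart.

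The call in untreated knockouts against wild-type vehicle was lost in 16 of 24 alternatives. It was lost with sex as a covariate (limma adjusted p = 0.406), and with the variance trend taken on the mean signal (0.205) or the gene total (0.0935) in place of the mean ratio, a choice compared after these data had been seen; over the 24 the limma or edgeR adjusted p ranged from 0.0142 to 0.540. The call in treated against untreated knockouts was lost in 3 of 24 alternatives: without untreated knockout replicate 1 (limma adjusted p = 0.114), with the trend on the mean signal (limma 0.0659) and with edgeR's diffSpliceDGE test on reads (0.314).

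**Figure D4:**
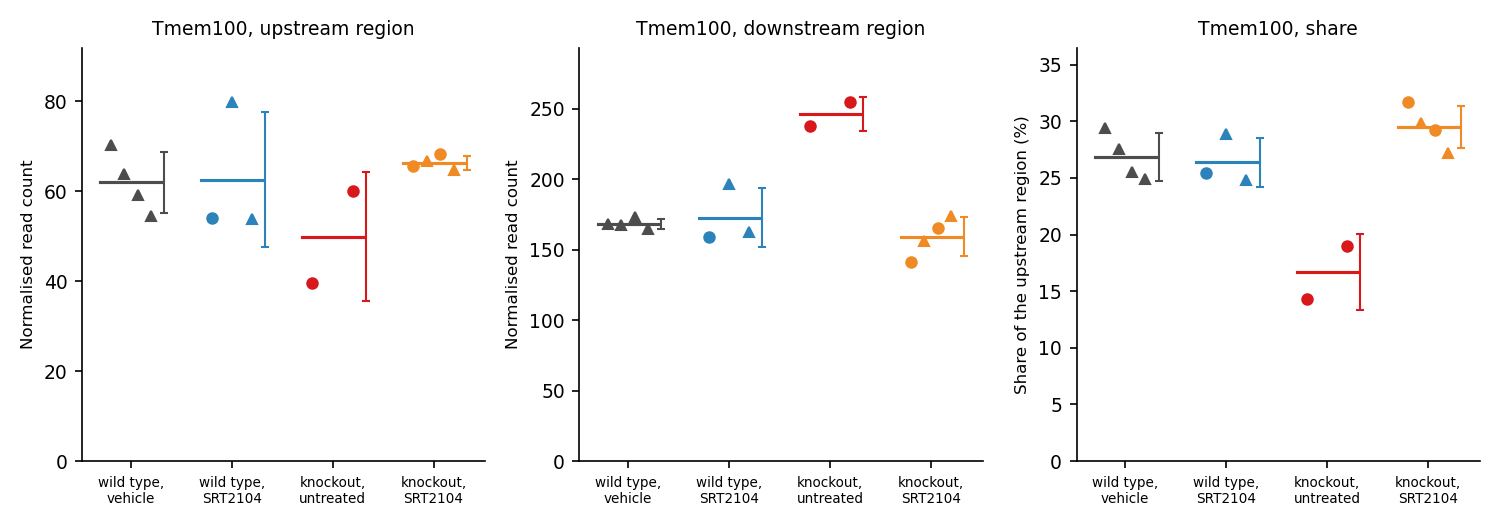
Tmem100 in each library: normalised read count of the upstream region (left) and the downstream region (middle), and share of the upstream region in percent (right), by group. Circles are female and triangles male libraries, bars the group mean and whiskers 1 SD (n = 4, 3, 2 and 4); the 2 untreated knockouts have the highest downstream counts and the lowest shares.

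Other ratios with the smallest p-values in untreated knockouts were also mostly within near pairs, and none passed. Hspa8, which encodes the constitutive chaperone Hsc70, had 24.8% and 18.8% of its mark at the upstream region (chromosome 9, 40608083 to 40608893) in untreated knockouts. The other 11 libraries had 27.0% to 32.1%, so the groups did not overlap (log2 difference -0.62 ± 0.12 SE, limma adjusted p = 0.110). The ratios named here and below were picked for small p-values, and non-overlap was not counted over all 880 ratios. It adds nothing to the test. Lamb2_1 (laminin beta 2) went from 39.2% ± 2.03 to 32.4% ± 1.90 and Tbx3_1 (a T-box transcription factor) from 32.7% ± 1.71 to 25.6% ± 2.66, with limma adjusted p of 0.237 and 0.228. In the other direction, Atoh1_1, at a transcription factor gene of neuronal precursors, had 31.4% ± 3.49 and 42.2% ± 4.01, and Apc2_2, at a microtubule-binding APC family gene, 16.3% ± 1.06 and 22.2% ± 2.91 (limma adjusted p = 0.237 and 0.290). Acsl1_1 (long-chain acyl-CoA synthetase), Sorbs2_4 (an adhesion adaptor) and 4930427A07Rik_1 had log2 differences of 0.81, 0.55 and 0.38. Dab2ip_3, the CpG-poor far region printed above, was the far region of lowest p on the lower side, with 3.6%, 5.7%, 3.4% and 3.8% in wild-type vehicle and 2.2% and 2.0% in the knockouts, from 15 reads in each knockout (log2 difference -0.94 ± 0.24 SE, limma adjusted p = 0.237).

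One library decided how many genes passed. Without wild-type vehicle replicate 3, 28 of the 701 genes passed in untreated knockouts against wild-type vehicle, among them Tmem100, Hspa8, Lamb2, Tbx3, Dab2ip, Acsl1, Runx2, Zfp423, Pde4a, Trim2 and Ntn5. Leaving out any other library gave at most 1 gene. Once neighbours under 2500 bp apart were summed into 780 promoters at 364 genes, no gene passed in any of the 4 pairwise comparisons. Genes with far regions passed only in some alternatives: Trim2, Dab2ip and Runx2 were among the 28 genes above, limma's diffSplice called Trim2 between untreated knockouts and wild-type vehicle, and sex as a covariate called Kcnip1 between treated and untreated knockouts.

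Treated knockouts were next compared with untreated knockouts, which asks whether SRT2104, with its gavage, moves the mark in the absence of methionine synthase. Of 111 ratios (12.6%) with an unadjusted p under 0.05, that of Tmem100 alone passed. Runx2, a transcription factor gene best known from bone with promoters 76918 bp apart, had the largest log2 difference among the 10 ratios named for this comparison. Runx2_1 (chromosome 17, 44950611 to 44951688, minus strand) held 1.7% and 2.0% of the gene's mark in untreated knockouts, 4.2%, 4.0%, 5.8% and 5.4% in treated knockouts, 3.6%, 5.3%, 2.1% and 4.4% in wild-type vehicle, and 6.6%, 4.0% and 5.8% in wild-type SRT2104. The untreated knockouts were lowest, next to wild-type vehicle replicate 3 at 2.1% (log2 difference between knockouts 1.37 ± 0.33 SE, limma adjusted p = 0.225).

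Kcnip1_1, the 5′ region of a potassium channel subunit gene and 148803 bp from the other, held 9.0% and 9.7% in untreated knockouts and 16.4%, 13.1%, 14.2% and 13.1% in treated ones (0.66 ± 0.16, limma adjusted p = 0.225). The groups did not overlap, which adds nothing to the test for a ratio picked by its p-value. Lamb2_1 and Hspa8_1 held 39.4% ± 1.78 and 28.2% ± 1.23 in treated knockouts, against 39.2% ± 2.03 and 29.8% ± 1.61 in wild-type vehicle, and had a limma adjusted p of 0.225 each against untreated knockouts. Both regions, and Atoh1_1 below, were named above from the same 2 untreated knockouts. This comparison is therefore not separate evidence for them. On the lower side were Shroom3_3 (an actin-binding protein of epithelia; 62.6% ± 0.93 and 55.5% ± 2.37, limma adjusted p = 0.195), Meis2_3 (a homeobox factor; 41.2% ± 0.47 and 35.8% ± 1.32), Pgf_2 (placental growth factor; 44.7% ± 4.62 and 34.1% ± 2.07), Zfp423_2 (a zinc finger factor; 8.0% ± 0.07 and 5.1% ± 0.31) and Atoh1_1, the last 4 with a limma adjusted p of 0.349.

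SRT2104 in wild types was compared with vehicle, and no ratio passed (0% called, lowest limma adjusted p = 0.147), while 88 ratios (10%) had an unadjusted p under 0.05. Much of that number rested on wild-type SRT2104 replicate 1, the only female of its group and the library with the fewest reads. Without it, 39 ratios had an unadjusted p under 0.05 and the lowest limma adjusted p was 0.809. Without replicate 2 or 3 there were 93 and 104 such ratios. The part of depth or sex in this was not tested. In the fit of all libraries the smallest p-values were mostly at genes with far promoters. Kcnip1_1 held 11.3%, 12.3%, 10.97% and 10.7% with vehicle and 20.7%, 14.1% and 17.9% with SRT2104, and all treated libraries were above all vehicle libraries (log2 difference 0.70 ± 0.14 SE, limma adjusted p = 0.147). Its level rested on 22 to 28 reads with vehicle and 24 to 45 with SRT2104. Hrh1_2, the CpG-poor region printed above, held 8.7%, 9.1%, 8.9% and 7.4% with vehicle and 20.1%, 19.1% and 11.1% with SRT2104 (1.04 ± 0.23, limma adjusted p = 0.148). In the knockouts Hrh1_2 had 15.4% and 11.5% untreated and 10.8% to 15.7% treated, so all 9 other libraries were above the 4 wild-type vehicle libraries. Summed levels of the markers of neighbouring brain regions (9 of 10 in the table, none at 0) were 1918 to 2044 with vehicle and 2185 to 2268 with SRT2104 in wild types, and 1961 and 2049 in untreated and 2093 to 2207 in treated knockouts. Their part in these results was not tested.

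Bmpr1b, a type I BMP receptor gene with 3 far promoters, had a larger share at its last region with SRT2104 and a smaller one at its first. Bmpr1b_3 (chromosome 3, 141593842 to 141594789, minus strand) held 14.1%, 12.4%, 11.5% and 11.3% with vehicle and 16.5%, 18.2% and 16.6% with SRT2104 (0.55 ± 0.11, limma adjusted p = 0.147). Bmpr1b_1 held 67.8% ± 2.68 and 61.5% ± 1.69 (limma adjusted p = 0.404). Pld1_2 (phospholipase D) held 33.6% ± 1.45 and 39.7% ± 1.26, Prickle2_1 (planar cell polarity) 33.9% ± 1.20 and 29.5% ± 1.63, Dock9_1 (an activator of Cdc42) 52.8% ± 1.17 and 47.9% ± 1.33, and Dlc1_3 68.7% ± 1.79 and 65.2% ± 1.34. Dido1, a PHD finger gene, had 95.3% ± 0.24 and 92.8% ± 1.47 at its 5′ region and 3.1% ± 0.24 and 5.0% ± 0.79 at the next; with regions of several gene names added, the difference of the 5′ region became 0.01 on the log2 scale, from -0.63.

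Treated knockouts were compared with treated wild types, the comparison in which both groups had the compound and both sexes. No ratio passed (0% called, lowest limma adjusted p = 0.872), and an unadjusted p under 0.05 was reached by 37 ratios (4.2%). Bmpr1b_3 had the smallest p on the lower side, with 17.1% ± 0.94 in wild types and 12.998% ± 1.24 in knockouts (log2 difference -0.46 ± 0.11 SE). Fkbp10_2 (a collagen chaperone), Pld1_2, Dixdc1_1 (a Wnt pathway gene) and Tfdp2_2 (an E2F partner) had log2 differences of -0.57, -0.33, -0.31 and -0.34. On the higher side Dock9_1, Malat1_1 (a nuclear noncoding RNA), Bmpr1b_1, Jarid2_1 (a Polycomb cofactor) and Dlc1_3 had 0.24, 0.24, 0.32, 0.21 and 0.19. Several of these genes also stand among the wild-type SRT2104 results, and both comparisons use the same 3 treated wild-type libraries. The test of whether SRT2104 acted differently in the genotypes called no ratio (0% called, lowest limma adjusted p = 0.0726; 105 with an unadjusted p under 0.05, 11.9%), and neither did the test over all 4 groups (0% called, lowest limma adjusted p = 0.0508; 78, 8.86%).

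**Figure D5:**
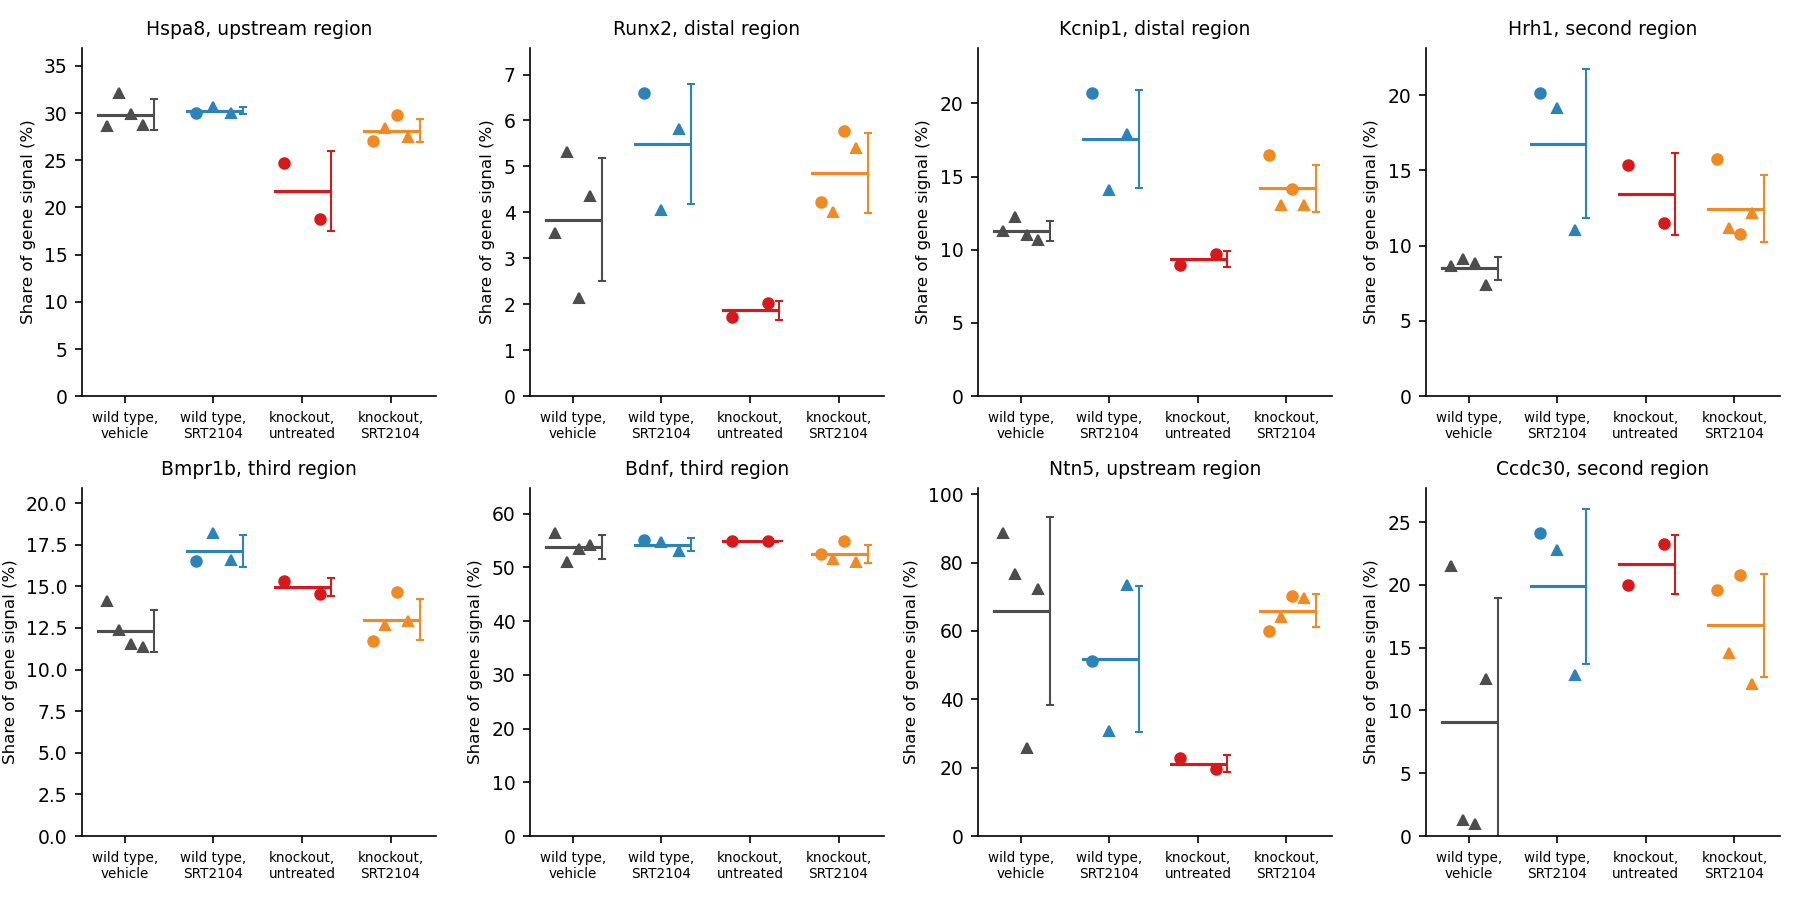
Share of the gene's H3K4me3 in percent at 1 region of each of 8 genes, by group, with circles for female and triangles for male libraries, bars for group means and whiskers for 1 SD (n = 4, 3, 2 and 4). Kcnip1 and Hrh1 are higher in all wild-type SRT2104 libraries than in all vehicle libraries, Bdnf stays between 51.0% and 56.4%, and Ntn5 and Ccdc30 vary widely within the vehicle group.

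The gene lists gave no call. For each list, ratios with an unadjusted p under 0.05 are given against 10.8%, 12.6% and 10% over all genes in the comparisons of untreated knockouts with wild-type vehicle, treated with untreated knockouts, and wild-type SRT2104 with vehicle. The list of cyclic nucleotide and kinase signalling genes (15 genes, 26 ratios) had 4, 10 and 2, with median absolute log2 differences of 0.23, 0.19 and 0.11, against 0.12, 0.12 and 0.11 over all genes. Of its 8 named members, some had regions whose mean shares differed between untreated and treated knockouts without passing the test: Pde4a, a cyclic AMP phosphodiesterase gene whose 3′ region had 52.0% ± 2.14 in untreated and 42.5% ± 2.76 in treated knockouts, Pde10a, whose 5′ region had 40.7% ± 2.83 and 33.4% ± 3.68, Gnas_2 with 7.8% ± 0.31 and 10.4% ± 0.53, and Camk1d_2 with 5.1% ± 1.33 and 3.6% ± 0.51. Bdnf_1 also differed, with 15.4% and 16.3% in untreated and 18.1%, 17.0%, 17.3% and 20.2% in treated knockouts. Single wild types varied as widely at the 2 phosphodiesterase genes. Pde4a_3 held 42.5%, 37.8%, 51.3% and 41.9% with vehicle and 44.4%, 50.5% and 44.7% with SRT2104. Pde10a_1 held 32.6%, 32.9%, 41.9% and 31.4% with vehicle and 32.7%, 38.4% and 34.3% with SRT2104. Bdnf_3 and the regions of Gnao1, Prkg1 and Prkacb given next had closer means in both knockout groups. Gnao1_1, at a G protein subunit gene, held 10.1% ± 0.04 and 10.1% ± 0.59, and Prkg1_1, at a cyclic GMP-dependent kinase gene, 26.3% ± 2.64 and 26.6% ± 0.94. Prkacb_1, at a protein kinase A catalytic subunit gene, held 66.3% ± 1.60 and 66.7% ± 3.88, and Bdnf_3 had the values given above. Ratios of a gene are tied to each other, as with the 3 of Pde4a.

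The textbook list (24 genes, 41 ratios) had 5, 12 and 2, the transcription factor and chromatin list (23 genes, 35 ratios) 4, 4 and 3, the cytoskeleton list (11 genes, 21 ratios) 2, 2 and 1, the synaptic list (9 genes, 11 ratios) 0, 1 and 1, and the methylation list (2 genes, 2 ratios) none. At Dlg2 the weaker region had 30.2% ± 3.96 in untreated and 24.3% ± 2.81 in treated knockouts, and at Map4, a microtubule gene, 35.7% ± 2.14 with vehicle and 41.5% ± 3.06 with SRT2104 in wild types.

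The strongest region was not the same in all group means at 32 genes. Ntn5, a netrin family gene, had the widest range. Ntn5_1 held 22.9% and 19.5% in untreated knockouts, and 60.0%, 64.0%, 70.4% and 69.6% in treated ones. It held 88.6%, 76.6%, 25.8% and 72.4% in wild types with vehicle and 51.4%, 30.7% and 73.5% with SRT2104. Groups overlapped, since 1 vehicle and 1 SRT2104 wild type lay near the untreated knockouts. Most of the variation was in Ntn5_2, which had 4.3, 11.9, 85.3 and 14.1 normalised reads in wild-type vehicle, 69.9 and 121.7 in untreated knockouts and 13.1 to 14.9 in treated knockouts. The test over groups gave a limma adjusted p of 0.531.

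Ccdc30, chosen after its values were seen because it had the largest difference between wild-type SRT2104 and vehicle, was similar. Ccdc30_2 had 95.4, 4.3, 3.6 and 51.9 normalised reads in wild-type vehicle and 49.7 to 111.9 in the other 9 libraries, while Ccdc30_1, 54508 bp away, had 325 to 384 in all. The next 4 genes with a change of strongest region, Gm12409, Trim30a, Myo7a (an unconventional myosin) and Erg (an endothelial ETS factor), had group ranges of 11.2 to 14.5 percentage points. Their regions were at 8.1 to 95.5 normalised reads in the libraries of Myo7a and Erg, and none passed the test over groups (limma adjusted p of 0.600 to 0.711).

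Each region was also tested on its own, over all 14006 regions. None of the 1498 passed with limma in any of the 5 contrasts or over all groups; the share called over the whole table was 0.00714% in untreated knockouts against wild-type vehicle, in wild-type SRT2104 against vehicle, in treated knockouts against treated wild types and over all groups, and 0% in treated against untreated knockouts and in the interaction. An unadjusted p under 0.05 was reached by 190 of the 1498 between untreated knockouts and wild-type vehicle (9.14% of all regions), 214 in treated against untreated knockouts (12.5%), 222 in wild-type SRT2104 against vehicle (13.4%), 101 in treated knockouts against treated wild types (6.2%), 192 in the interaction (7.88%) and 198 over all groups (11.5%). The median log2 difference of the 1498 in the first of these was 0.03, as over all regions. DESeq2 on the recovered reads called 25 (0.178%) of all 14006 regions in untreated knockouts against wild-type vehicle. In treated against untreated knockouts it called 29 (0.207%), and edgeR called 0 in both. Among the 1498, DESeq2 called 5 (Hspa8_1, Sytl2_1, Ube2ql1_2, Calr_2 and Tmem100_2) in the first comparison and 6 (Runx2_1, Atoh1_2, Pax6_1, Pax6_2, Tcf15_2 and Tmem100_2) in the second.

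Those regions differed as follows. Calr_2, at the gene of the chaperone calreticulin, had 881 and 780 normalised reads in untreated knockouts and 648 to 738 in the other 11 libraries. Ube2ql1_2, at a ubiquitin-conjugating enzyme gene, had 1204 and 1109, and all other libraries 885 to 1104. Pax6, a transcription factor gene of neural progenitors, had 30.2 and 34.9 at Pax6_2 in untreated knockouts against 46.7 to 84.8 elsewhere, and 326 and 307 at Pax6_1, where wild-type vehicle replicate 3 had 312. In the authors' deposited table, which compares knockout with wild type, Ube2ql1_2 was the only one of the 1498 with an adjusted p under 0.05 (0.0444, log2 fold 0.29), and Tmem100_2 and Calr_2 had 0.0578 each. The share of all regions passing in that comparison was not counted, so no background stands beside this count. Without wild-type vehicle replicate 3, limma called 100 of the 1498 and 564 (4.03%) of all regions in untreated knockouts against wild-type vehicle.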

How the data were processed

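Before deposit the authors had turned read counts in mm9 H3K4me3 regions into a normalised signal by scaling each of the 13 libraries, per the file headers. The submitters' processing notes name MACS2, Bowtie2, SAMtools, DESeq2 and bedtools without versions; input controls were not used here. The authors' deposited table also gives log2 fold changes and p-values for knockout against wild type. Dividing a library's values by its smallest step gave whole reads for 100% of them (tolerance 0.001 reads), which were used for edgeR and DESeq2.

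Lines were reduced to distinct regions, and regions were ordered 5′ to 3′ with the deposited coordinates. A share is a region's value as a percent of all such regions of its gene. Ratios, log2((region + 1)/(others + 1)), were fitted with limma (variance trend, robust), 1 coefficient per group, and tested two-sided at an adjusted p of 0.05; single regions were fitted as log2(value + 1). The variance trend followed the mean log2 ratio, limma's default, settled after counts of calls under other trends had been seen. Fold changes on these scales understate changes of low regions. A minimum of 10 in 2 libraries removed 0 regions. Reads in regions are the depth behind each value, and PCR copies cannot be told apart. The script was tested on simulated data. The members, gene lists and tests were chosen with earlier results of these data known. Genes were named by rule: those called; the 5 smallest p in each direction of the 4 pairwise comparisons; up to 8 per list by signal; the 5 genes with most regions; and the 5 with the widest change of strongest region. Marker lists of microglia and neighbouring brain regions were also summed: 480 to 558 (5 of 8 markers) and 1918 to 2268 (9 of 10) over all libraries. Pairing by replicate number was not used in the main fits. Alternatives were pseudocounts, a mean filter, sex, the replicate block, added or summed regions, other tests, and leaving out each library. R 4.3.3 was used with DESeq2 1.42.0, edgeR 4.0.16 and limma 3.58.1, and Python 3.11.15 with pandas 2.3.3 and matplotlib 3.10.9.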

Additional observations from a re-analysis of the deposited data

Results flagged for a closer look

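For groups of 4 libraries, the share of each named region was searched for a library far from the other 3. Of 220 group tests 8 met the criterion, and chance gives about 1 in 20, or 5%. Wild-type vehicle replicate 3 was the library in 5 of them: Zfp423_2 had 7.38% there against 4.53 to 4.93% in the other 3, Pde10a_1 had 41.9% against 31.4 to 32.9%, Gnas_1 had 1.86% against 2.10 to 2.14%, Sept9_2 (a septin gene) had 57.7% against 46.6 to 48.5%, and Bcl11a_2 (a zinc finger factor of neurons) had 20.7% against 18.6 to 18.7%. In wild-type vehicle replicate 2, Malat1_1 had 31.9% against 35.2 to 35.8%. In treated knockout replicate 1, Bcl11a_3 had 14.1% against 15.7 to 16.0%. In treated knockout replicate 2, Trim30a_2 had 38.1% against 58.0 to 61.5%.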

How the results depend on the processing

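For the 40 differences of named regions, 969 of 970 alternative values kept their sign; Dido1_1 in wild-type SRT2104 against vehicle became 0.0105 with regions of several gene names added. Genes called by the ratio test, against 1 in untreated knockouts versus wild-type vehicle, 1 in treated versus untreated knockouts and 0 otherwise, were as follows. A pseudocount of 10, or a mean of at least 50, gave 1 for the interaction and 1 over all groups. Sex as a covariate gave 0, then 2 (Kcnip1 and Tmem100), and 1 over all groups. Adding regions of several names gave 2 in treated versus untreated knockouts and 1 over all groups. Summing neighbours under 2500 bp gave 0 and 0, edgeR's diffSpliceDGE 0 and 0, and limma's diffSplice 2 (Psd3 and Trim2) in untreated knockouts versus wild-type vehicle. Fitting only the groups compared gave 0 and 2 (Ntn5 and Tmem100). The variance trend on the mean signal gave 0 and 0, and on the gene total 0 in the first; both were chosen after seeing the data. Over fits without 1 library the counts were 0 to 28, 1 to 2, 0 to 1 (wild-type SRT2104), 0 (treated knockout against treated wild type), 0 to 7 (interaction) and 0 to 2 (all groups). Tmem100 was not called in untreated knockouts versus wild-type vehicle without vehicle replicate 1, 2 or 4, wild-type SRT2104 replicate 1 or 3, untreated knockout replicate 1, or any treated knockout; without untreated knockout replicate 1 Hspa8 was called in place of it in both knockout comparisons. Kcnip1 passed in wild-type SRT2104 without replicate 2 and Hrh1 without replicate 3. Without replicate 1 of that group, 66 of the 1498 regions had an unadjusted limma p under 0.05 against vehicle, from 222. Over all 14006 regions there were 499, from 1876. For single regions, DESeq2 gave 5 and 6 of the 1498 where limma gave 0, beside 0.178% and 0.207% of all regions. Fits without 1 library gave 0 to 100, 0 to 30, 0 to 1, 0, 0 to 57 and 0 to 38 in the same order. The highest counts came without wild-type vehicle replicate 3, except the 1 in wild-type SRT2104 (Msra_2), which came without treated knockout replicate 4. Beside the 100, 30, 57 and 38, 564 (4.03%), 205 (1.46%), 272 (1.94%) and 217 (1.55%) of all regions were called. Beside the 1, 3 (0.0214%) were called. The cause of these differences was not tested.

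Over 16 same-numbered pairs of libraries, correlations were -0.255 to 0.239. Differently numbered pairs were not compared, so these values do not decide whether replicate numbers pair the libraries. With the replicate block, Tmem100 stayed the 1 call in each of the 2 knockout comparisons (limma adjusted p = 0.0337 and 0.00747). Fits of only the groups compared, diffSplice and diffSpliceDGE give no value over all groups. Few reads limit the precision of some shares, with 15 to 38 reads per library at Dab2ip_3, 19 to 46 at Hrh1_2 and 20 to 45 at Kcnip1_1.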

Other observations

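Nrxn3, Prkcz, Pax6 and Mitf, genes of the lists, had low p-values in a comparison without passing; they were chosen after their values were seen. Nrxn3_1, at the 5′ region of a presynaptic adhesion gene, held 18.7%, 15.0%, 19.0% and 13.8% of the gene's mark in wild-type vehicle. It held 29.6%, 22.7% and 20.6% in wild-type SRT2104 (log2 difference 0.67, limma adjusted p = 0.298). Prkcz_1, at the upstream region of an atypical protein kinase C gene, held 18.4% to 23.3% in wild-type vehicle and 13.6% and 15.5% in untreated knockouts (-0.60, limma adjusted p = 0.327), and treated knockouts had 16.5% to 21.0%. Pax6_2 held 8.5% and 10.2% in untreated knockouts and 12.3% to 14.8% in treated ones (0.60, limma adjusted p = 0.349). Mitf_2, the weaker region of a melanocyte transcription factor gene, held 2.3% and 0.4% in untreated knockouts and 2.3% to 4.4% in treated ones, from 2.7 to 38.2 normalised reads over all libraries (1.51, limma adjusted p = 0.349).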
